A study of Mus musculus with 30 samples.

Results

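The synaptic vesicle and release machinery was followed through 34 genes in the hypothalamus of newborn female mice. Members were the 34 symbols listed by name for this set, and each gene was read by the brightest of its probe sets, the one with the highest mean log2 signal over 30 arrays. All 34 had a probe set on the array, and 33 of them lay above the filter on dim probe sets, among 12388 genes above the filter of 18193 genes with a probe set of their own. The mice were C57BL/6J females with no engineered allele stated, injected subcutaneously on the day of birth with estradiol benzoate (EB, 7.5 μg in peanut oil) or with the oil vehicle alone. The whole hypothalamus of individual pups was taken at 5 times after that, 1 h, 3 h, 6 h, 12 h and 24 h, with 3 arrays in each of the 10 groups of treatment and time, so that the 15 oil arrays carry the vehicle and the injection but no uninjected pup was measured. The age of the pups rises with the time after injection, and the 2 cannot be told apart. The sources used here do not say which pups shared a litter, and p-values measure the spread between these animals.

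Chemical synapses release transmitter from vesicles that are filled, held near the membrane, docked, primed, fused on calcium entry and then retrieved by endocytosis. Synapsins tether vesicles, synaptotagmins sense calcium, SNARE proteins drive fusion, Rab3 GTPases and active zone proteins bring vesicles to their release sites, and dynamin cuts new vesicles from the membrane. Around birth the rodent hypothalamus is forming synapses, and estrogen in this window is known to shape synaptic patterning in the sexually differentiating brain. In bulk tissue, fewer cells of a type and less RNA per cell cannot be told apart.

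The promoters of 5 members are printed because their genes are among those called below. Syp, Sncb and Syn1 had the largest differences between 6 h and 12 h in oil arrays, Unc13a was called at the same step in oil and in EB arrays, and Dnm1 was called between EB and oil at 24 h. The sequences run from 250 bases before to 50 bases after the transcription start, come from RefSeq on assembly GRCm38.p6, and are written 5′ to 3′ on the strand of the gene. Capitals mark the GC box GGGCGG, the binding motif of Sp1 family factors, in Syp and Sncb. In Syn1 and Unc13a they mark TTCAGCACC, the first part of the RE1 element that the neuronal repressor REST binds, and in Dnm1 they mark GGTCA, an arm of the palindromic estrogen response element. Only 1 kind of motif is marked in each gene, and other matches stay in lower case. These are 2 GC boxes in Unc13a, 1 GC box in Dnm1, and 1 GGTCA arm and 1 cAMP response element TGACGTCA in Syn1. Each motif was searched on both strands, and a reverse match is in capitals as it reads on the printed strand.
Syp, chrX:7638330-7638629, plus strand: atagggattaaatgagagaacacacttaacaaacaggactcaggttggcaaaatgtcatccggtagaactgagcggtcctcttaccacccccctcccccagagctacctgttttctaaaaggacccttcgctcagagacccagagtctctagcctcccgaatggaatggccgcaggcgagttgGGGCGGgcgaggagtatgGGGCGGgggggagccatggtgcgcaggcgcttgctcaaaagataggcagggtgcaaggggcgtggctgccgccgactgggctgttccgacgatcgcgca
Sncb, chr13:54766546-54766845, minus strand: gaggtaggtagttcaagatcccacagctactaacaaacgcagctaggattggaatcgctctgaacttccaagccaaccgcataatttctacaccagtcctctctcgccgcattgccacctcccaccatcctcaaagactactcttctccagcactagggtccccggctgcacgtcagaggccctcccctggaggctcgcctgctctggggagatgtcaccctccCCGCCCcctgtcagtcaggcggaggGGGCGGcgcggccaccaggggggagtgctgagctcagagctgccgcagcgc
Syn1, chrX:20920869-20921168, minus strand: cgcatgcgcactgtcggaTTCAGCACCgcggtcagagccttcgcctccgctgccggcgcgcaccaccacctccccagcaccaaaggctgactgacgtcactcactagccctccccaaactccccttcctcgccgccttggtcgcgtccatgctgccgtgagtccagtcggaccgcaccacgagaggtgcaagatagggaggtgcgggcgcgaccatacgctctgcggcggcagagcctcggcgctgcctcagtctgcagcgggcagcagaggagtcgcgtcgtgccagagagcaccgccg
Unc13a, chr8:71671708-71672007, minus strand: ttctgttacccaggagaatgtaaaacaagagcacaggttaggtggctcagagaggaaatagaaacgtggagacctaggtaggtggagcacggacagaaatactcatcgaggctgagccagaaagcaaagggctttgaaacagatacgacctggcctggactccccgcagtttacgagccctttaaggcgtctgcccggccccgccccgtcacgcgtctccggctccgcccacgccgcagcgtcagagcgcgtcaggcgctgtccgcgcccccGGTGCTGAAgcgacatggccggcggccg
Dnm1, chr2:32353280-32353579, minus strand: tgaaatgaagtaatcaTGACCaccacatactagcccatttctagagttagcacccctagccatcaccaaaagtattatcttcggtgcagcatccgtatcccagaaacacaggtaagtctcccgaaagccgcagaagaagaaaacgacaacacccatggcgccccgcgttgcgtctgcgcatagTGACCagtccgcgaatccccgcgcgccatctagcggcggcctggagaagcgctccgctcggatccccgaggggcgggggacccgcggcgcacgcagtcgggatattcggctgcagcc
Of the 34 members, 27 had a promoter in the RefSeq table. The GC box was in 22 of the 27 (81.5%), against 69.5% of the 10030 matched genes above the filter and 35.7% of all 32851 promoters of this length. The estrogen response element arm was in 8 of 27 (29.6%, against 41.5% of matched genes above the filter and 40.5% of all promoters), and the full palindromic estrogen response element was in 0 of 27, against 0.07% of all promoters. The RE1 part was in 2 of 27 members, Syn1 and Unc13a (7.41%), against 0.558% of matched genes above the filter and 0.371% of all promoters. The cAMP response element TGACGTCA was in 1 of 27 (3.70%), the Syn1 promoter, against 3.55% of matched genes above the filter and 1.79% of all promoters. The median GC content of the promoters was 61.33% in the 27 members and 61.33% in the matched genes above the filter. A gene was counted if any of its promoters held the motif, while the shares of all promoters count each promoter by itself. By gene, over all 27025 genes, the shares were 38.2% for the GC box and 43.6% for the estrogen response element arm. They were 0.433% for the RE1 part and 2.03% for the cAMP response element. A match describes letters in this window and not a bound site.

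The deposited MAS5 signal was not on one scale. The median signal of an array was between 52.9 and 66.9 at 12 h and between 28.0 and 44.1 at the other times, so every array was multiplied by a factor that brought its median to 41.3, the mean over the arrays, and signals below are scaled unless called deposited. Of 13 markers of hypothalamic neurons, 12 were above the filter, while 0 of 6 pituitary and 0 of 6 blood markers were (5 and 3 of them had a probe set of their own). Of 8 telencephalic markers 5 were above the filter, and their summed signal was 2608 in the oil 6 h replicate 2 array against 647 to 1014 in the other 29 arrays. The 33 members above the filter had mean signals from 100.3 for Vamp1 to 2545 for Snap25, a scale on which probe sets of different genes are not compared. Sv2c, a vesicle glycoprotein related to Sv2a and Sv2b, had a mean of 13.4, under the lowest mean kept (21.9), and is not described further.

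Over the first day in oil arrays, 25 of the 33 members differed among the 5 times (limma F test, adjusted p under 0.05 over 27022 probe sets), where 34.1% of all probe sets did. Without the 12 h arrays, 7 of 33 differed, Snap25, Snap91, Nsf, Dnm1, Rab3c, Sv2a and Syn2, against 15.8% of all probe sets. In oil arrays 22 of 33 members had their highest mean at 12 h, and 14 of 33 did in EB arrays. The same count over all probe sets was not made, so no share stands beside these counts. Of all probe sets, 18.7% were higher at 12 h than at 1 h in oil arrays and 8.74% in EB arrays. In EB arrays, which share no animal with the oil arrays, 18 of 33 differed among the times, against 22.9%.

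**Figure D1:**
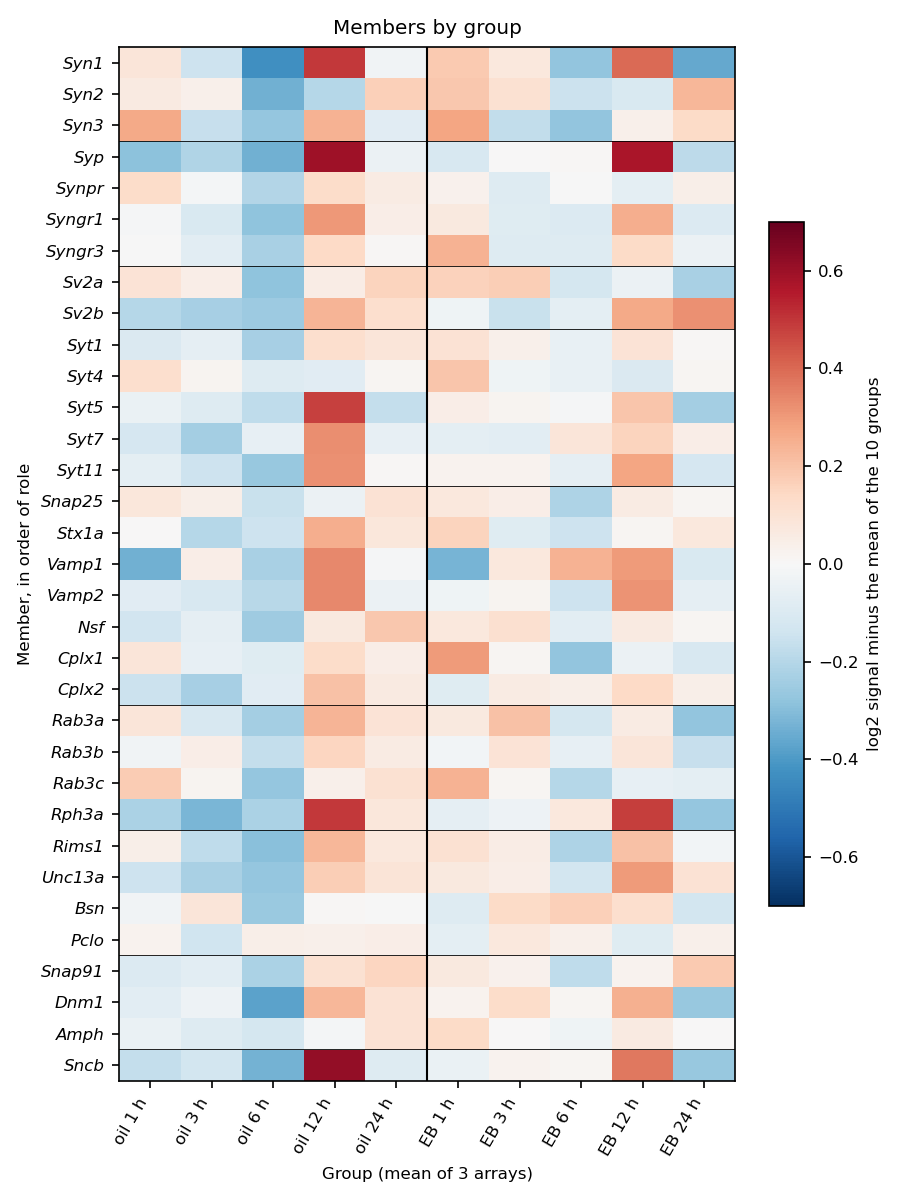
Mean log2 scaled signal of 33 members (y axis, in order of role, with lines between roles) in the 10 groups (x axis, oil at left and EB at right, 3 arrays each), as the difference from the mean of the 10 groups. The oil 12 h column is highest for 22 of 33 members among the oil columns, and the oil 6 h column is the lowest of the oil columns for 27 of 33. The same counts over all probe sets were not made.

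Between 6 h and 12 h in oil arrays, 19 of the 33 members were higher at 12 h and 0 were lower, against 7.01% of all probe sets higher. Shares here and throughout are over all probe sets kept, dim ones included. The share over the brightest probe sets of all genes was not counted. The median log2 fold change of the 33 was 0.39, beside 0.11 over the brightest probe sets of all genes and 0.06 over all probe sets. The largest rises, about 1.9-fold, were those of 3 genes that encode presynaptic proteins, Sncb, Syp and Syn1. Of the 19 members, 7 passed under every alternative tried, Dnm1, Syp, Vamp2, Syngr1, Syn1, Sncb and Syt5. Syp, Syn1, Sncb and Syt5 had 1 probe set above the filter, so averaging a gene's probe sets could not change their values. Without scaling 33 of 33 members passed, so that alternative did not set members apart. The count was 9 without oil 12 h replicate 3 and 12 without oil 6 h replicate 2, the array with the high telencephalic markers.

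Among the vesicle membrane proteins, Syp, which encodes synaptophysin, a major one of them, had signals of 911, 796 and 915 in the 3 oil arrays at 6 h and 1585, 1626 and 1776 at 12 h. Every 12 h array lay far above every 6 h array. The means were 874 ± 67.5 and 1662 ± 101 (SD, n = 3), a log2 fold change of 0.93 with an SE of 0.12 (limma, adjusted p = 3.87e-05). Of the other tetraspan proteins, Syngr1, synaptogyrin 1, rose from 562, 489 and 510.5 to 722, 805 and 815, a log2 fold change of 0.59. Syngr3 at 0.37 and Synpr, synaptoporin, at 0.34 did not pass. Of the SV2 glycoproteins, Sv2b passed at 0.50, and Sv2a at 0.34 had an adjusted p of 0.0581.

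Sncb encodes beta-synuclein, a presynaptic protein that binds vesicle membranes. Its signals were 273, 228 and 245 at 6 h and 480.5, 441 and 517 at 12 h in oil arrays, and the groups were far apart. The log2 fold change was 0.95 with an SE of 0.14 (limma, adjusted p = 0.000203), from means of 249 ± 22.7 to 479.5 ± 37.6 (SD, n = 3). The synapsins tether vesicles to each other and to actin, and only 1 of the 3 passed here. Syn1 had signals of 371, 332 and 374 at 6 h and 645, 645 and 759 at 12 h, again with no overlap. Its log2 fold change was 0.93 with an SE of 0.15 (limma, adjusted p = 0.000477). Syn3, at 0.51, had a larger standard error of 0.18 and did not pass, and Syn2 was at 0.14.

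The synaptotagmins are calcium sensors of fusion or, for some members, calcium-independent regulators of vesicle traffic, and 4 of 5 passed. Syt5 had signals of 237, 211 and 213 at 6 h and 352, 304 and 391 at 12 h. The 12 h arrays were all higher and spread more widely than the 6 h arrays. The log2 fold change was 0.66 with an SE of 0.11 (limma, adjusted p = 0.00041). Syt11 was at 0.58, Syt7 at 0.39 and Syt1, the fast sensor of synchronous release, at 0.35. Syt4, an atypical synaptotagmin found on dense-core vesicles, was at 0.0089 with a 95% interval of -0.18 to 0.20.

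Of the 7 SNAREs and SNARE regulators, 4 passed. Vamp2, the vesicle SNARE synaptobrevin 2, had signals of 928, 856 and 916 at 6 h and 1220.5, 1363 and 1312 at 12 h, with no overlap, and a log2 fold change of 0.53. Vamp1, the related vesicle SNARE, was at 0.56 with an adjusted p of 0.0499 and, at a mean signal of 100.3, a standard error of 0.18. The target SNARE Stx1a, syntaxin 1A, was at 0.40 and Nsf, the ATPase that takes SNARE complexes apart, at 0.32. The other target SNARE, Snap25, was at 0.12 (95% interval -0.033 to 0.27) and did not pass. The complexins, which clamp and promote fusion, did not pass, with Cplx1 at 0.21 and Cplx2 at 0.28.

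Rph3a, the Rab3 effector rabphilin, had signals of 200.5, 183 and 190.1 at 6 h and 306, 311 and 328 at 12 h. Each group was tight and they lay well apart. The log2 fold change was 0.72 with an SE of 0.14 (limma, adjusted p = 0.00229). Of the vesicle GTPases, Rab3a passed at 0.47, while Rab3b at 0.32 and Rab3c at 0.30 did not. Of the 4 active zone genes 2 passed, Rims1, a Rab3-binding scaffold, at 0.53 and Unc13a, the priming factor Munc13-1, at 0.44. The giant scaffolds Bsn at 0.27 and Pclo at -0.0025 did not, but another Pclo probe set of nearly the same mean signal (563 against 575) passed at 0.69 (limma, adjusted p = 0.0269).

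The endocytic gene Dnm1, which encodes the neuronal dynamin, had signals of 1465, 1268 and 1412 at 6 h and 2191, 1952 and 2165 at 12 h in oil arrays. All 12 h arrays were higher. The log2 fold change was 0.61 with an SE of 0.10 (limma, adjusted p = 0.000392). Snap91, the clathrin adaptor AP180, passed at 0.33, and Amph, amphiphysin, at 0.11 did not.

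**Figure D2:**
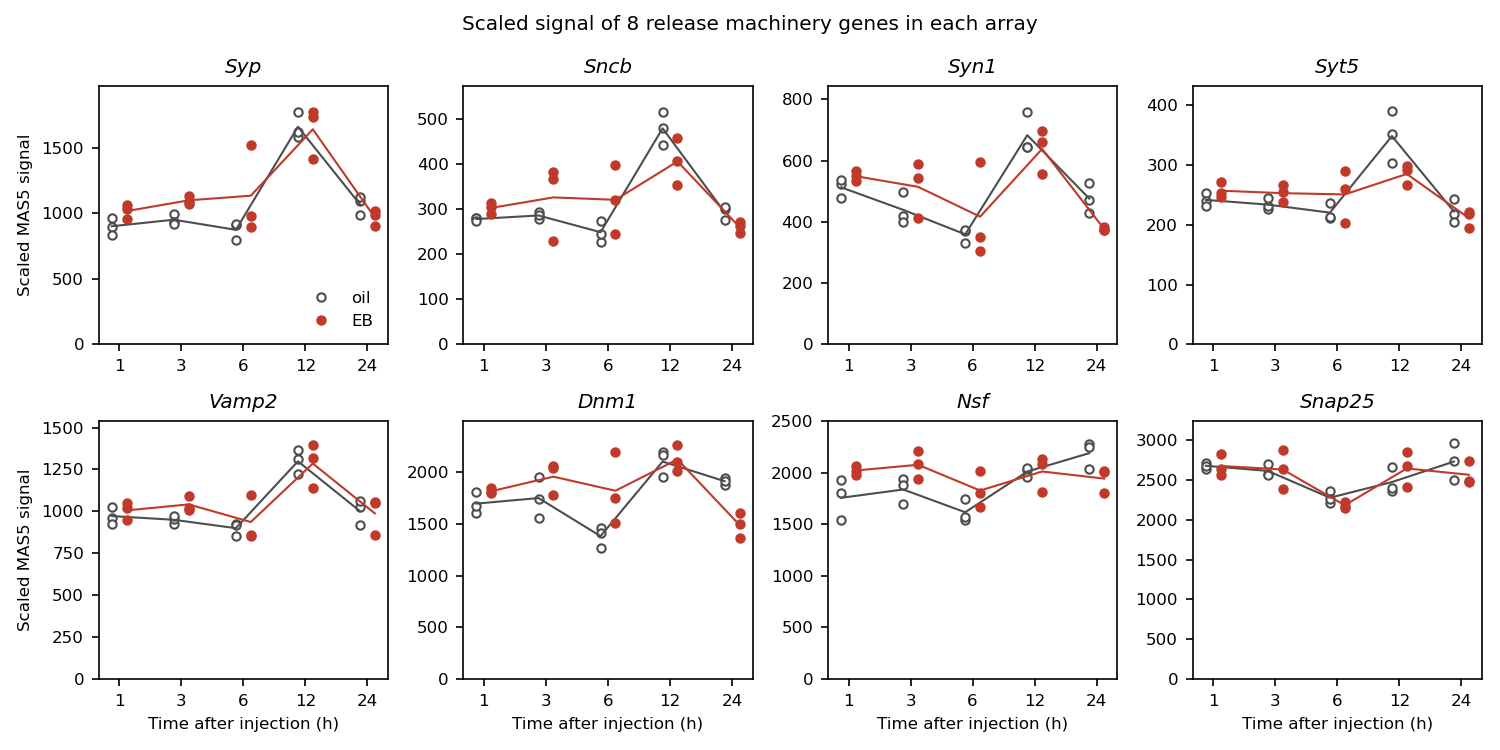
Scaled MAS5 signal (y axis, from 0) by hours after injection (x axis) for 8 members. Open circles stand for oil arrays and filled circles for EB arrays, with lines through the means of 3 arrays. Syp, Sncb, Syn1, Syt5 and Vamp2 stand highest at 12 h in both treatments, and Dnm1 at 24 h is lower in all 3 EB arrays than in all 3 oil arrays.

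The step rests on 1 probe set per gene, and other probe sets of the same genes did not all show it. Beside the brightest, 37 further probe sets of 23 members were above the filter, and 6 of these were higher at 12 h, with a median log2 fold change of 0.21 over the 37. Of the 19 members called, 6 had no other probe set above the filter (Sncb, Syn1, Syp, Syt5, Unc13a and Vamp1). Another probe set passed in the same direction for 4, Dnm1, Rab3a, Stx1a and Syt7. For the remaining 9, Nsf, Rims1, Rph3a, Snap91, Sv2b, Syngr1, Syt1, Syt11 and Vamp2, none of the others passed. The other probe sets of Vamp2 (0.56), Sv2b (0.27), Syngr1 (0.23) and Rims1 (0.092) were positive, and those of Nsf were at 0.22 and -0.11. Those of Rph3a (-0.18) and Snap91 (-0.36) had the opposite sign to the brightest. Pclo and Syn2, whose brightest probe sets did not pass, each had another that did, at 0.69 and 0.43. Syt11 had its brightest at 0.58 and 4 others at 0.15, 0.17, -0.042 and 0.10, and Syt1 had its brightest at 0.35 and 3 others at -0.47, -0.33 and 0.13. With the mean over a gene's probe sets in place of the brightest, 12 members passed. Of the 19 called, 8 then did not pass, Snap91, Syt1, Nsf, Syt11, Rims1, Rph3a, Sv2b and Vamp1, with Snap91 at -0.017, Syt1 at -0.078 and Rph3a at 0.27. Vamp1 had no other probe set above the filter, so its value stayed at 0.56 (limma, adjusted p = 0.0517).

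Measures of whole arrays moved with the same step. The deposited median was 36.5 to 36.9 in the oil 6 h arrays and 61.5 to 66.9 in the oil 12 h arrays, and without scaling 33 of 33 members passed with a median of 1.21, as did 90.5% of all probe sets. The scaled signal of the 18S ribosomal RNA control was 2112 to 2193 at 6 h and 1033 to 1372 at 12 h in oil arrays. The members' mean log2 signal, as the difference from the 30 arrays, was -0.32 to -0.12 at 6 h and 0.17 to 0.27 at 12 h. At 1 h, when the deposited medians were 36.4 to 43.8, it was -0.040 to -0.022, between these ranges. The ratio of the 3′ to the 5′ control probe set of Gapdh, a sign of RNA quality, was 0.659 to 0.684 at 6 h and 0.711 to 0.727 at 12 h in oil arrays, and the scaled 3′ beta-actin control was 9142 to 9599 and 7713 to 8219.9, neither with an overlap. Of 16 pan-neuronal markers outside the set, 4 were higher and 0 lower at 12 h than at 6 h (median 0.18), and their summed signal was 48689 to 51890.1 at 6 h and 51578 to 54044 at 12 h. Of 9 astrocyte and radial glia markers 1 was higher (median 0.36), and of 7 oligodendrocyte lineage markers 2 were (median 0.40), with summed signals of 1858 to 1917 at 6 h and 2191 to 2442 at 12 h. Of 10 endothelial and mural and 9 microglial markers 0 passed, and of 10 progenitor markers 1 did. The part of these measures in the members' step was not tested.

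**Figure D3:**
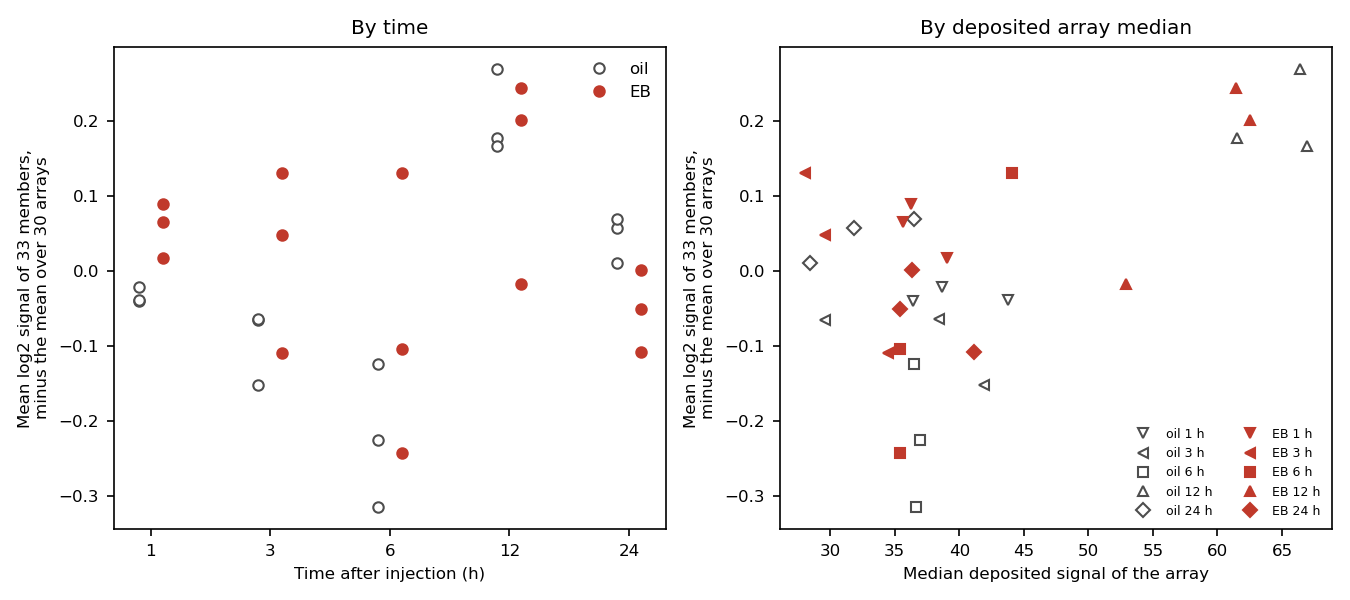
Mean log2 scaled signal of the 33 members in each array, minus its mean over 30 arrays (y axes), against time after injection (left, h) and against the median deposited signal of the array (right, MAS5 units), with open symbols for oil and filled symbols for EB. The 3 oil 12 h arrays lie at 0.17 to 0.27 and the 3 oil 6 h arrays at -0.32 to -0.12, and the EB 6 h arrays spread from -0.24 to 0.13.

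The same step in EB arrays gave 5 members higher and 0 lower, against 1.39% of all probe sets higher, with a median of 0.20 beside 0.088 over all genes. Syn1, Syp, Unc13a and Vamp2 were among the 19 of the oil arrays (4 members, 80% of the EB calls and 21.1% of the oil calls). Syp had signals of 898, 984 and 1524 in the EB arrays at 6 h and 1735, 1778 and 1415 at 12 h. The groups overlapped, because EB 6 h replicate 3 stood above the other 6 h arrays and above the lowest 12 h array. Its log2 fold change was 0.57, and that of Syn1, which overlapped in the same way (306, 349 and 595 at 6 h, 695, 662 and 557 at 12 h), was 0.67. Vamp2 was at 0.46, with 859, 851 and 1100.0 at 6 h and 1398, 1316 and 1141 at 12 h and no overlap. Unc13a, with 214, 230.4 and 252 at 6 h and 326, 327 and 285 at 12 h, was at 0.43. Snap25, not called in oil arrays, had signals of 2147, 2220.5 and 2175 at 6 h and 2844, 2674 and 2411 at 12 h and a log2 fold change of 0.27. Neither Unc13a nor Snap25 overlapped between the times. Among the other probe sets 1 was lower (0.692% of all probe sets), a Snap91 one at -0.60, while the brightest of Snap91 was at 0.20 and not called. Without EB 6 h replicate 3, whose deposited median of 44.1 was the highest outside 12 h, 11 members were higher. The count was 0 when EB 6 h replicate 1, EB 6 h replicate 2 or EB 12 h replicate 1 was left out, and 3 when EB 12 h replicate 2 was. The difference between the EB and the oil step passed for 0 members and for 0% of all probe sets, with 5 members under an unadjusted p of 0.05. The sign of this difference was negative for 31 of 33 members, all read on the same arrays. The share of all genes with a negative sign was not counted.

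**Figure D4:**
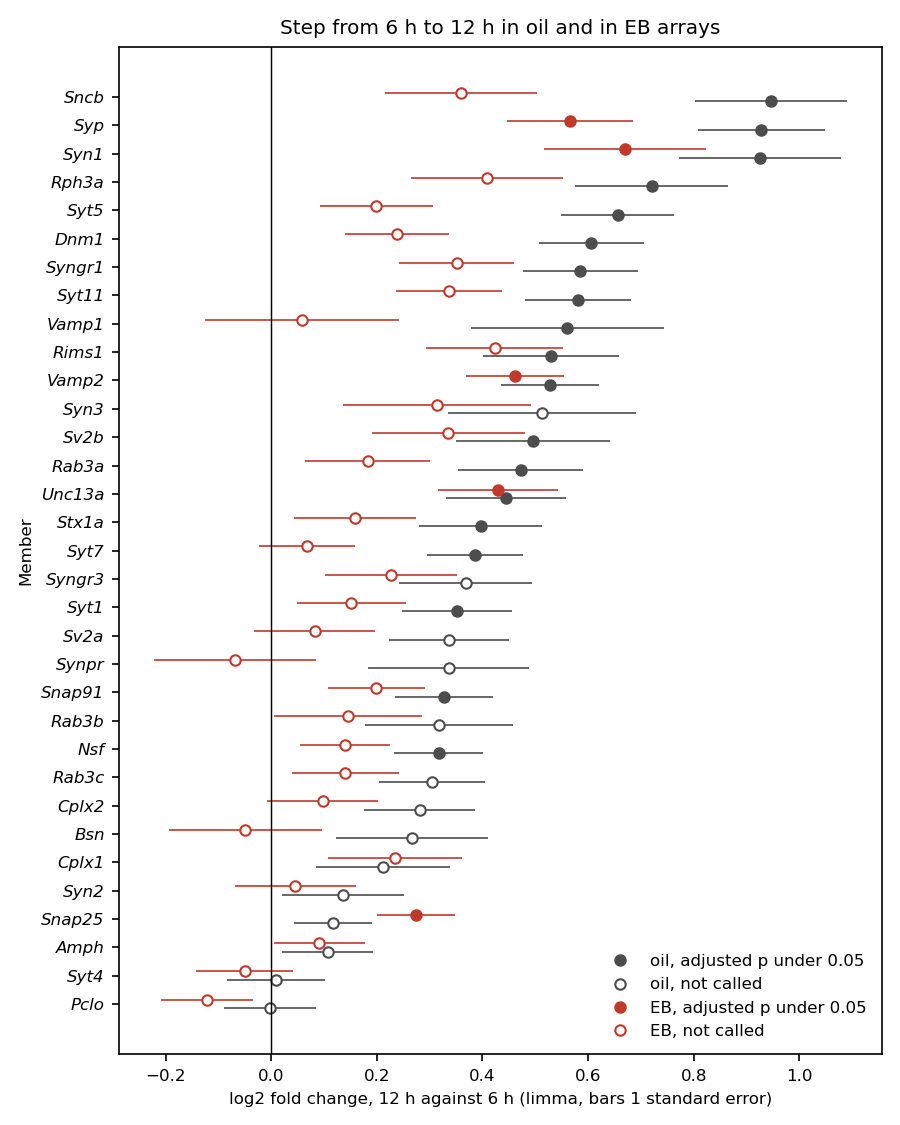
log2 fold change from 6 h to 12 h (x axis, bars 1 standard error from limma) of 33 members (y axis, in order of the oil value) in oil arrays (dark) and EB arrays (red), with filled circles where the adjusted p was under 0.05. In oil arrays 19 circles are filled and in EB arrays 5, and the EB value lies left of the oil value for 31 of 33 members. The same count over all genes was not made.

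Against 1 h rather than 6 h, 14 members were higher at 12 h in oil arrays (18.7% of all probe sets) and 0 lower. Syp rose from 898, 968 and 839 at 1 h, a log2 fold change of 0.88. Sncb, from 280.0, 281 and 273, was at 0.78, and Rph3a, from 216, 186 and 174, was at 0.72. The 1 h arrays of these 3 genes all lay below their 12 h arrays. Vamp1 had signals of 60.4, 88.0 and 88.7 at 1 h and 112, 119.9 and 142 at 12 h, a log2 fold change of 0.67. Syt5, from 253, 240.1 and 232, was at 0.52. Syt7, from 951, 1001 and 1237 to 1468, 1341 and 1510.0, was at 0.45. In these genes too every 12 h array was above every 1 h array. The other 8 were Dnm1, Syt11, Vamp2, Syngr1, Cplx2, Syn1, Unc13a and Sv2b, between 0.31 and 0.44. In EB arrays 5 members were higher at 12 h than at 1 h (8.74% of all probe sets), Syp at 0.69, Vamp1 at 0.63, Rph3a at 0.55, Sncb at 0.42 and Vamp2 at 0.35, and all 5 were among the 14 of the oil arrays. In EB arrays 2 were lower (7.48% of all probe sets), Syt4 at -0.30 (2155, 2455 and 2077 at 1 h, 1747, 2042 and 1661 at 12 h) and Rab3c at -0.30 (1753, 2062 and 1653 at 1 h, 1394, 1654 and 1382 at 12 h, overlapping). Without oil 12 h replicate 3 the oil count was 9, and without EB 1 h replicate 1, EB 1 h replicate 2 or EB 12 h replicate 1 the EB count was 3. With the mean over a gene's probe sets 6 of the 14 oil calls were lost, Rph3a at 0.012 (limma, adjusted p = 0.953), Syt11 at 0.053, Vamp2 at 0.18, Syt7 at 0.18, Dnm1 at 0.24 and Sv2b at -0.019. In EB arrays Rph3a at 0.11 and Vamp2 at 0.19 were lost in the same way. The call of Sncb was lost as well, but Sncb has 1 probe set. Its value stayed at 0.42 (limma, adjusted p = 0.0516).

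From 12 h to 24 h the RNA signals of several vesicle protein genes were lower, in a comparison that shares the 12 h arrays with the step before it. In oil arrays 7 members were lower at 24 h than at 12 h (5.31% of all probe sets) and 1 was higher (7.46%), with a median of -0.13 beside -0.077 over all genes. Syp fell to 1093, 989.9 and 1125, a log2 fold change of -0.64 with an SE of 0.12 (limma, adjusted p = 0.00053). Sncb fell to 301, 276 and 304, at -0.71, and Syt5 to 219, 205 and 243, at -0.65. None of these 24 h arrays reached a 12 h array. Syn1 fell to 430.1, 472 and 525, at -0.52, and Vamp2 to 1024, 920.4 and 1061, at -0.38. Syt7 fell to 1103, 1029 and 1182, at -0.38. These 3 genes also did not overlap between the times. Syt11 fell from 2131, 2119 and 2357 to 1702, 1739 and 1889, at -0.31, but another of its probe sets rose at 0.29, and none of the other probe sets of Syt7 and Vamp2 passed. Syn2 went the other way, from 733, 925 and 737 at 12 h to 1069, 1046 and 961 at 24 h, at 0.37. Of the 37 other probe sets, 7 were higher and 1 lower over this step, and the higher ones included 2 of Syt1, the lesser of them at 0.88, where its brightest was at -0.034. With the mean over a gene's probe sets 4 calls were lost, Syt11 at -0.024, Syt7 at -0.10, Vamp2 at -0.27 and Syn2 at 0.085. The members' count of 8 was 4 without oil 24 h replicate 2, 5 without oil 12 h replicate 3 and 5 without oil 24 h replicate 1.

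In EB arrays 9 members were lower at 24 h than at 12 h and 0 higher (6.39% of all probe sets lower), and 6 of them, Sncb, Syn1, Syp, Syt11, Syt5 and Vamp2, were among the 7 of the oil arrays. Syp was at -0.76, with 904, 985 and 1016 at 24 h. Syn1 was at -0.75, with 374, 384 and 372, and Sncb at -0.63, with 247, 263 and 272. These 24 h arrays lay below all EB 12 h arrays. Rph3a fell from 277, 315 and 348 to 181, 204 and 171, at -0.75. Dnm1 fell from 2262, 2099 and 2010.3 to 1362, 1503 and 1605, at -0.51. Syt5 was at -0.43 (298, 266 and 291 at 12 h, 195, 218 and 221 at 24 h), and Syngr1 at -0.35 (819, 791 and 659, then 575, 607 and 593). In all of these the times did not overlap. Syt11 was at -0.39 (2251, 2165 and 1993, then 1703, 1609.5 and 1578) and Vamp2 at -0.38 (1398, 1316 and 1141, then 857, 1051 and 1056). With the mean over a gene's probe sets the calls of Rph3a at -0.17 (limma, adjusted p = 0.452) and Syt11 at -0.041 (limma, adjusted p = 0.793) were lost. The difference between the EB and the oil step passed for 0 members, against 1.59% of all probe sets, with 2 members under an unadjusted p of 0.05.

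Up to 6 h few members passed, and the shares of all probe sets that passed were low as well. Between 1 h and 3 h 0 members passed in oil arrays, against 0% of all probe sets, with 2 members under an unadjusted p of 0.05. Between 3 h and 6 h in oil arrays 2 members were lower (3.84% of all probe sets), Dnm1 at -0.34, from 1953, 1556 and 1741 to the 6 h values above, and Syn2 at -0.37, from 962, 897 and 944 to 817, 629.6 and 732. In neither gene did the times overlap. Both calls were lost when oil 3 h replicate 1, oil 3 h replicate 3, oil 6 h replicate 2 or oil 6 h replicate 3 was left out. In EB arrays 0 members passed from 1 h to 3 h (0.137% of all probe sets) or from 3 h to 6 h (1.65%), with 7 and 10 members under an unadjusted p of 0.05.

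From 1 h to 24 h in oil arrays, 1 member was higher and 0 lower (4.93% of all probe sets higher). This was Nsf, whose signals were 1926, 1801 and 1540.2 at 1 h and 2279, 2252 and 2034 at 24 h. The 24 h arrays were all higher, with a log2 fold change of 0.32 with an SE of 0.08 (limma, adjusted p = 0.0203), and its 2 other probe sets at 0.061 and 0.29 did not pass. The call was lost when oil 1 h replicate 3, oil 24 h replicate 1 or oil 24 h replicate 2 was left out, and with the mean over its probe sets (0.23). Of the 37 other probe sets of members, 0 were higher and 4 lower (1.8% of all probe sets lower), 2 of Rab3c at -0.72 and -0.58, 1 of Syt1 at -0.81 and 1 of Syngr3 at -0.51. The brightest probe sets of these 3 genes were at -0.069, 0.19 and 0.011 and did not pass. The median of the 33 members was 0.063, beside 0.073 over all genes. In EB arrays 4 members were lower at 24 h than at 1 h and 0 higher (5.51% of all probe sets lower), with a median of -0.12 beside 0.0042 over all genes. Syn1 had signals of 549.6, 533 and 565 at 1 h against 374, 384 and 372 at 24 h, at -0.54, with no overlap. Cplx1, complexin 1, had 543, 609 and 533 at 1 h and 419.6, 399 and 448 at 24 h, at -0.41. Sv2a had 1306, 1230.1 and 1322 at 1 h and 926, 953 and 1078 at 24 h, at -0.39. The times did not overlap in these 2 genes either. Rab3c fell to 1387, 1597 and 1418 at 24 h, at -0.31. No member passed when EB 1 h replicate 1, EB 1 h replicate 2 or EB 24 h replicate 1 was left out, and 1 passed when EB 1 h replicate 3 or EB 24 h replicate 2 was. With the mean over a gene's probe sets Rab3c at -0.21 and Cplx1 at -0.26 did not pass. Of the 37 other probe sets 3 were lower, of Dnm1 at -0.56, Rab3a at -0.43 and Syngr3 at -0.66, and 1 of Syn2 was higher at 0.38 (4.7% of all probe sets higher). Over the same interval in EB arrays 7 of 16 pan-neuronal markers were lower (median -0.20), as were 12 of 12 leptomeningeal markers (median -3.03), and their part in the members' values was not tested. The change from 1 h to 24 h differed between EB and oil for 0 members, against 0.995% of all probe sets, with 7 members under an unadjusted p of 0.05.

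EB against oil at the same time was the main question of the experiment, and few members differed. At 1, 3, 6 and 12 h 0 of 33 members passed by their brightest probe sets, against 0.0037%, 0.474%, 0% and 0% of all probe sets, while 2, 5, 7 and 2 members had an unadjusted p under 0.05. At 3 h another probe set of Syt1 was lower in EB arrays at -0.89 (limma, adjusted p = 0.0259), where the brightest of Syt1 was at 0.10. The median log2 fold change of the members was 0.089, 0.11 and 0.15 at 1, 3 and 6 h, with 28 of 33 positive at each, and -0.044 and -0.094 at 12 and 24 h, with 26 of 33 negative at each. Over the brightest probe sets of all genes the medians were 0.047, 0.064, 0.023, -0.0083 and -0.029. The shares of all genes with a positive or a negative sign were not counted. The members with the smallest p did not pass. They were Nsf at 0.21, Amph at 0.18 and Syngr3 at 0.25 at 1 h, and Cplx2 at 0.29, Rab3a at 0.32 and Pclo at 0.22 at 3 h. At 6 h they were Dnm1 at 0.38, Bsn at 0.42 and Syp at 0.34, and at 12 h Syt5 at -0.28, Stx1a at -0.24 and Syt7 at -0.17. Averaged over the 5 times, 0 members passed (0.074% of all probe sets), and 3 had an unadjusted p under 0.05.

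At 24 h, 1 of 33 members was lower in EB-treated mice and 0 were higher (2.19% of all probe sets lower). The members' count thus lay near the share of all probe sets. The 1 member was Dnm1, with signals of 1944, 1879 and 1916 in the vehicle-treated controls and 1362, 1503 and 1605 in the EB-treated mice. All 3 EB arrays lay below all 3 oil arrays. The means were 1913 ± 32.5 and 1490.2 ± 122 (SD, n = 3), a log2 fold change of -0.36 with an SE of 0.10 (limma, adjusted p = 0.0387). The difference between EB and oil for Dnm1 changed with time (limma F test of treatment by time, adjusted p = 0.0372), which 1 of 33 members and 0.958% of all probe sets showed. On the log2 scale the EB arrays differed by 0.10 at 1 h and 0.16 at 3 h, then by 0.38 at 6 h, and by 0.015 at 12 h. The test of change with time was lost when any 1 of 9 arrays was left out, which were EB 1 h replicate 1, oil 6 h replicates 2 and 3, oil 12 h replicate 3, all 3 oil 24 h arrays and EB 24 h replicates 1 and 2. At 6 h the 3 EB arrays (1513, 1753 and 2197) lay above the 3 oil arrays (1465, 1268 and 1412). The other Dnm1 probe set was at -0.57 at 24 h with an adjusted p of 0.0655. The call at 24 h held in 8 of 15 alternatives and was lost when any 1 of 5 of the 6 arrays was left out, the exception being EB 24 h replicate 3. Sv2a at -0.38 (adjusted p = 0.0661 from limma) and Rab3a at -0.37 (adjusted p = 0.0932 from limma) were as far from 0 and did not pass.

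Other measures differed between the groups at 24 h. The 18S control was 777 to 1345 in oil and 2067 to 2620.1 in EB arrays. Of 12 leptomeningeal fibroblast markers, 11 were lower in EB arrays (median -2.33), with summed signals of 2197 to 2741 in oil and 229.7 to 1440.3 in EB arrays. Of 16 pan-neuronal markers 1 was lower (median -0.18), with summed signals of 57479 to 60549 and 49946 to 54077. The summed signals of astrocyte and radial glia markers were 15052 to 15650.5 in oil and 11956 to 13896 in EB arrays, those of microglial markers 979 to 1062 and 834 to 906, and those of choroid plexus markers 166 to 185 and 112 to 154. The 3′ beta-actin control was 11250.5 to 12734 in oil and 8523 to 9685 in EB arrays. In each of these measures the EB arrays lay apart from the oil arrays. Without scaling every log2 fold change of this comparison is higher by 0.23, and the members' median was 0.13. The part of these measures in the Dnm1 difference was not tested.

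**Figure D5:**
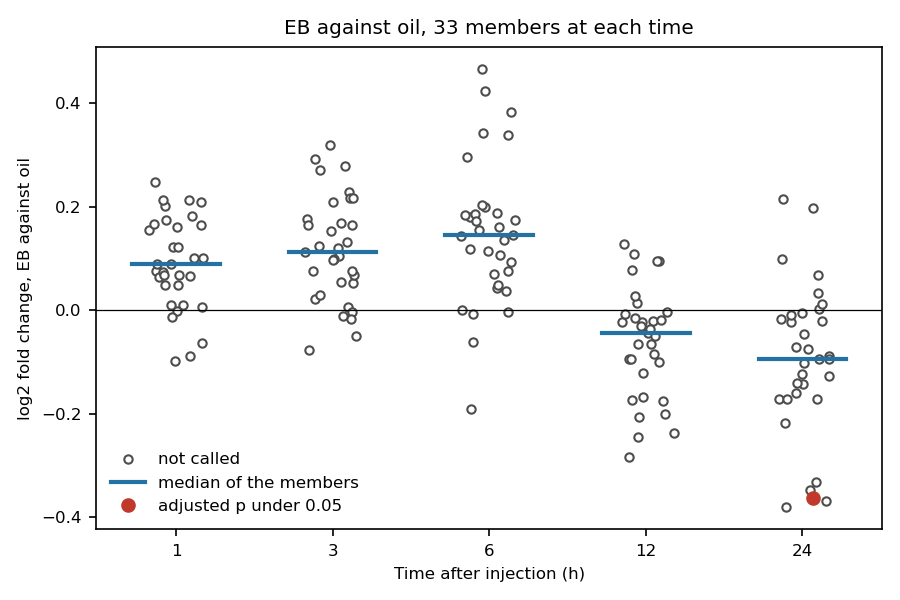
log2 fold change of EB against oil (y axis) of 33 members by hours after injection (x axis). Open circles are members not called, the filled circle with an adjusted p under 0.05 is Dnm1 at 24 h and a blue line marks the median. The medians are above 0 at 1, 3 and 6 h and below 0 at 12 and 24 h.

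Among 78 further genes of the release machinery, 65 were above the filter. Between 6 h and 12 h in oil arrays 21 of the 65 were higher and 0 lower, with a median of 0.19, beside the 7.01% of all probe sets higher and the median of 0.11 over all genes. The largest were Atp6v0a1, a subunit of the proton pump that fills vesicles, at 1.00, Syt3 at 0.78, the pump subunit Atp6v1g2 at 0.73, Slc32a1, the vesicular transporter of GABA and glycine, at 0.70, the clathrin adaptor subunit Ap2a1 at 0.68 and the active zone liprin Ppfia3 at 0.63. From 12 h to 24 h in oil arrays 8 of the 65 were lower and 6 higher, against 5.31% and 7.46% of all probe sets. Atp6v0a1 at -0.62 and Ppfia3 at -0.60 were the largest falls, followed by Doc2a, Napb, Scamp5 and Napa. Stxbp5l, a tomosyn that inhibits SNARE assembly, at 0.82 and Snap47 at 0.54 were the largest rises, followed by Sypl, Stxbp5, Atp6v1b2 and Cltc. Between EB and oil at 24 h 2 of the 65 were lower and 0 were higher, against 2.19% of all probe sets lower. They were Snap47, a SNAP25-related SNARE, at -0.48 and the pump subunit Atp6v1b2 at -0.32.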

How the data were processed

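The authors labelled total RNA from the whole hypothalamus of single pups and hybridised it to GeneChip Mouse Genome 430 2.0 arrays, 1 per animal. What they deposited is the MAS5 signal intensity of each probe set, which is linear; neither its software version nor its target scaling is named in the sources used here. Arrays were brought to a common median (41.3), values under 1 were raised to 1, and log2 was taken. Of 45101 probe sets, 64 controls were dropped, followed by the 40% with the lowest mean log2 signal, leaving 27022. A limma model (3.58.1, R 4.3.3) with a mean for each of 10 groups, a variance trend and 20 residual degrees of freedom covered all 30 arrays. Benjamini-Hochberg adjustment ran over the 27022 probe sets of each comparison, and an adjusted p under 0.05 was called. The fit was tested on simulated data with independent noise and no shift of whole arrays, so that test does not cover such shifts. Fold changes are on the log2 scale of scaled signals. With 3 arrays in each group, exact permutation cannot give a p under 0.1.

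The members and the gene lists were chosen with earlier results of these data known. All members are named. Values in every array are given for members that passed in a comparison, or for the 6 largest changes where over 12 passed. Array values are not printed for Syp, Vamp1, Rph3a, Sncb and Vamp2 at EB 1 h, nor for Vamp1 and Sncb at EB 12 h. For EB against oil the 3 smallest p are named where none passed. Gene symbols are those of the platform annotation, and only probe sets with 1 symbol were used. The members had 81, of which 70 were above the filter. Promoters came from a RefSeq table (GRCm38.p6). Steps in EB arrays, 12 h against 1 h and the F test without 12 h were added after the data were seen. Same-numbered oil and EB arrays did not deviate together (r from -0.13 to 0.088 over 15 pairs), so replicate numbers were not used as pairs. Alternatives covered scaling, the floor, the filter, array weights, the arrays in the fit, the probe set used and leaving out each array.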

Additional observations from a re-analysis of the deposited data

Results flagged for a closer look

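The difference between EB and oil for Dnm1, the dynamin of synaptic vesicle endocytosis, changed with time (adjusted p = 0.0372 from limma, F test of treatment by time over all 27022 probe sets). It was 0.38 on the log2 scale at 6 h, which did not pass by itself (0 members were called at 6 h), and -0.36 at 24 h, and at each of these times the 3 EB arrays lay on 1 side of the 3 oil arrays. The test of change with time passed for 1 of 33 members and 0.958% of all probe sets. The Dnm1 call was lost without scaling, without the filter and when any 1 of 9 arrays was left out. It was also lost under the methods' two-way analysis of variance, adjusted here over all probe sets kept. The paper gives that analysis gene by gene and names no such adjustment, so the thresholds differ.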

How the results depend on the processing

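With 3 animals per group, few differences of small size can be called. Counts under the alternatives, here and above, are of members alone unless a share is given. The share of all probe sets called can move with the setting as well, as it did without scaling. The 12 h arrays were the brightest as deposited, and results at 12 h depend on scaling. Without scaling, log2 fold changes shift by 0.82 from 6 h to 12 h and by -1.02 from 12 h to 24 h in oil arrays, 33 members passed at each of these steps (median 1.21 and -1.15), 66 over the neighbouring oil steps together, 33 from 6 h to 12 h and 32 from 12 h to 24 h in EB arrays, 33 from 1 h to 12 h in oil and 31 in EB arrays, while 0 passed from 3 h to 6 h or from 1 h to 24 h (oil median -0.24, EB count 0), for EB against oil at 24 h (median 0.13) and for treatment by time. The sign of 3 called members then turned, Syn2 from 12 h to 24 h in oil arrays to -0.65, Syt4 and Rab3c from 1 h to 12 h in EB arrays to 0.37 each. Quantile normalization gave a median of 0.26 from 6 h to 12 h in oil arrays and 2 calls from 1 h to 24 h. With no filter 0 passed from 3 h to 6 h in oil arrays, for EB against oil at 24 h and for treatment by time, 2 from 1 h to 24 h and 3 from 6 h to 12 h in EB arrays. Array weights gave 2, 0, 3, 8 and 10 for oil 24 h against 1 h, oil 6 h against 3 h, EB against oil at 24 h, EB 24 h against 1 h and EB 12 h against 6 h, and fits to only the arrays compared gave 3, 0, 3, 7 and 0. The mean of a gene's probe sets gave 12 from 6 h to 12 h and 5 from 12 h to 24 h in oil arrays, and turned Snap91 (-0.017) and Syt1 (-0.078) at the first step and Sv2b (-0.019) from 1 h to 12 h. The methods' test, a two-way analysis of variance on the deposited signal, called 0 members for treatment by time. It was adjusted here over all probe sets kept, which the paper does not name for its gene by gene tests. The F test over oil times without 12 h called 7. The cause of these shifts was not tested. Leaving out 1 array at a time gave 0 to 1 for oil 24 h against 1 h, 9 to 12 for oil 12 h against 1 h, 18 to 25 for oil over time, 0 to 2 for treatment by time, 15 to 33 for the neighbouring oil steps, 0 to 3 for EB 24 h against 1 h, 3 to 7 for EB 12 h against 1 h, 0 to 3 for oil 6 h against 3 h, 9 to 22 for oil 12 h against 6 h, 0 to 11 for EB 12 h against 6 h, 4 to 8 for oil 24 h against 12 h, 6 to 9 for EB 24 h against 12 h and 0 to 1 for EB against oil at 24 h. With a replicate block, 19 members passed from 6 h to 12 h and 8 from 12 h to 24 h in oil arrays and 1 for EB against oil at 24 h, and no count moved by over 1.5 times; 6 of 15 oil arrays correlated best with the EB array of their own number.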
